A study of Mus musculus with 4 samples.

Results

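The expression of 38 solute carrier genes was followed in cells sorted from small intestine of mice. These genes encode carriers of sugars, amino acids, peptides, vitamins, iron, phosphate, carnitine and related solutes. All 38 listed genes were found among 30701 named genes of the arrays, each through 1 array feature with a single gene symbol, so no choice between features was needed. Per the labels, total RNA of 4 samples from mice aged 8 weeks was hybridised to whole-transcript arrays, with 1 array per group. All mice carried the Lgr5GFP-CreERT2 allele, in which Lgr5 drives GFP and CreERT2. Lgr5 is a receptor gene of crypt base stem cells. Non-stem cells were GFP-negative and wild-type. Stem cells were GFP-positive and were either wild-type, LncGata6 mutant or Ehf-/-. LncGata6 is a long noncoding RNA gene beside Gata6, and Ehf encodes an ETS transcription factor of epithelia. The collection protocol also names a sort of ILCreg, an innate lymphoid type, so the gate is uncertain, and the labels give neither the number of mice per sample nor the kind of LncGata6 mutation.

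Nutrients cross the gut wall through enterocytes. A carrier of the apical brush border takes the solute up, often coupled to sodium or protons, and another of the basolateral membrane passes it to the blood. Villus enterocytes and the proximal tubule of the kidney use many of the same carriers, because both tissues reclaim nutrients from a lumen. Dividing cells rely more on broadly expressed carriers such as Slc2a1 for glucose, and Slc1a5 and Slc7a5 with its heavy chain Slc3a2 for amino acids. The carriers were therefore read in 3 classes assigned from textbook knowledge: 9 gut-leaning, 17 shared by gut and kidney, and 12 broad carriers. A further 17 carriers best known from the kidney and 14 other gut carriers served as comparison lists.

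The start regions of the carriers were searched for short words, since LncGata6 lies beside the gene of a GATA factor and Ehf belongs to the ETS family. RefSeq windows of the GRCm38.p6 build, running from 250 bases before to 50 bases after a gene start, were held for 30 of the 38 carriers, in 39 windows. The words, searched on both strands, were AGATAA for GATA factors, AGGAAG for ETS factors, GTTAAT for HNF1, CAAAGTCC for HNF4, TTTATGG for CDX and TATAAA for the TATA box. Shown are the windows of the dimer partners Slc3a1 and Slc7a9, of the neutral amino acid carrier Slc6a19 and of the peptide carrier Slc15a1, all higher on the LncGata6 mutant than on the wild-type stem array. Each is printed in the direction of its gene, and capitals mark the words.
Slc3a1 (chr17:85028097-85028396, plus strand): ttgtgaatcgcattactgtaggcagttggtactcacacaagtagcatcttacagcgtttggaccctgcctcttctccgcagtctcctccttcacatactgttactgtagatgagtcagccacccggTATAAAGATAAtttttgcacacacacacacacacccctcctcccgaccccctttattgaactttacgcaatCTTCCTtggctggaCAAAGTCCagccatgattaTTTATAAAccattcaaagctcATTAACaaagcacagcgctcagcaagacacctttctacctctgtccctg
Slc7a9 (chr7:35448842-35449141, plus strand): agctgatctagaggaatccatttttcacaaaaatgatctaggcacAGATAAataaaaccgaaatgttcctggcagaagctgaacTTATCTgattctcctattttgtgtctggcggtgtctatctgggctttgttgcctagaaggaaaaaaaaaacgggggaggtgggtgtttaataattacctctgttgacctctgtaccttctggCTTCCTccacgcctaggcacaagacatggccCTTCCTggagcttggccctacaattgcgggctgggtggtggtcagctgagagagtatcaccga
Slc6a19 (chr13:73692587-73692886, minus strand): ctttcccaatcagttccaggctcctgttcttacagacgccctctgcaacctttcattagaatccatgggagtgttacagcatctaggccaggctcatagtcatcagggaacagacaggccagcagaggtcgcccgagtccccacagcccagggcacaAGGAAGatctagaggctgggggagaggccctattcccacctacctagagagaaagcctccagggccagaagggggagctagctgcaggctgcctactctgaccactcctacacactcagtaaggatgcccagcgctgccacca
Slc15a1 (chr14:121505205-121505504, minus strand): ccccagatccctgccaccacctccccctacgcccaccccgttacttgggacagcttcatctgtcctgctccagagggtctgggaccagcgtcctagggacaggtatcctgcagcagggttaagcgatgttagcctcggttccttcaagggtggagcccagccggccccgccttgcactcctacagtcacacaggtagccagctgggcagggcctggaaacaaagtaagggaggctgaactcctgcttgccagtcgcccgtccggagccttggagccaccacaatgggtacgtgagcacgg

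The Slc3a1 window held 3 TATA words and 1 word each for GATA, ETS, HNF4 and HNF1. Its GATA word, at bases 132 to 137, shared base 132 with a TATA word, and the other 2 TATA words overlapped each other. The Slc7a9 window shown held 2 GATA and 2 ETS words, the Slc6a19 window 1 ETS word, and the Slc15a1 window none of the 6 words. A further Slc7a9 window, not shown, held 2 ETS words but no GATA word. Over all carriers, the ETS word was found in 14 of 39 windows (35.9%), against 35.4% of 32851 windows of all genes. The GATA word was in 4 of 39 (10.3%), against 11.2%, and the HNF1 word in 6 (15.4%), against 7.10%. The TATA word was in 4 (10.3%, against 13.6%), the HNF4 word in 1 (2.56%, against 1.42%) and the CDX word in 0 (against 2.75%). By class, the ETS word was in 12 of 20 windows of shared carriers (60.0%, in 8 of 14 genes), 1 of 8 of gut-leaning and 1 of 11 of broad carriers. Among all 27025 genes with windows, 10383 had it. All 4 windows with the GATA word belonged to shared carriers (3 of 14 genes, against 3432 of 27025). The HNF1 word was in 4 of 20 windows of shared (20.0%), 1 of 8 of gut-leaning and 1 of 11 of broad carriers. Of 17 windows of kidney carriers, 4 held the HNF1 word (23.5%), 2 the ETS word and 2 the GATA word (11.8% each). Some genes have several windows, Slc7a7 with 5 and Slc7a9 with 2, and some of these overlap, so the windows are not independent. A word is a match of letters and not a binding site.

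The values are log2 levels as deposited, and a control limit was set at the 95th percentile of 5222 negative control features of each array, at 5.16 on the non-stem, 5.62 on the wild-type stem, 5.31 on the LncGata6 mutant and 5.19 on the Ehf knockout array. There were no replicates, so no difference has an error or a test, and precision is limited by how few arrays there are. Lgr5 was at 9.41 for wild-type stem cells but at 2.79 to 3.03 elsewhere. Both mutant arrays are labelled as GFP-positive stem cells, yet Lgr5 lay under the control limit there, as on the non-stem array. The Lgr5 values thus do not bear out the stem label of either mutant array. Olfm4, also read to check the labels, was at 10.81 on the wild-type stem and 8.06 on the LncGata6 mutant array. It was at 5.86 on the Ehf knockout and 5.42 on the non-stem array. Ehf read 3.03 on the Ehf knockout array against 6.99 on the wild-type stem array. It also lay under the control limits on the non-stem array (3.75) and the LncGata6 mutant array (5.09), neither labelled as an Ehf knockout. A low Ehf value therefore does not by itself check the knockout label. Gata6os, the listed name of LncGata6, read 4.92 on wild-type stem cells and 4.37 on LncGata6 mutant cells, both under the control limits, so it does not check that label. Arrays are named by their labels. Markers of other cells moved with the arrays. On the non-stem array, 9 of 9 kidney tubule markers (8.30 to 12.30) and 9 of 9 liver markers (9.66 to 12.52) reached the control limit. On the Ehf knockout array, 0 of 14 general epithelial markers reached it (2.18 to 4.72), while all 10 neutrophil and all 10 macrophage markers did. On the LncGata6 mutant array, 9 of 9 T cell markers and 12 of 12 enterocyte markers reached it, and 2 of 9 kidney tubule markers did, Cubn and Aqp1, which are not restricted to kidney. Enterocyte markers also reached it in 9 of 12 cases on the wild-type stem, 11 of 12 on the non-stem and 2 of 12 on the Ehf knockout array. T cell markers did so in 3 of 9, 5 of 9 and 6 of 9 cases in that order of arrays. The part of these cells in the carrier levels was not tested, and in bulk RNA fewer cells of a type and less RNA per cell cannot be told apart.

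The number of measurable carriers differed between the arrays. At or above the control limit were 29 carriers on the non-stem, 26 on the LncGata6 mutant, 12 on the Ehf knockout and 11 on the wild-type stem array. Over all named genes these shares were 26.5%, 20.1%, 17.5% and 16.5%. The highest value of a carrier reached the control limit and lay on the LncGata6 mutant array for 14 of the 38, on the non-stem array for 14, on the Ehf knockout array for 4 and on the wild-type stem array for 2. The other 4 (Slc5a9, Slc2a7, Slc6a14 and Slc7a6) stayed under the limits on all arrays. By class, the LncGata6 mutant array was highest in this sense for 6 of 9 gut-leaning, 7 of 17 shared and 1 of 12 broad carriers, and the non-stem array for 1, 9 and 4. The array of the highest value was not counted over all named genes, so these counts have no background share. The arrays also differ in the share of all genes at the limit, as given above. Lowest values mostly lay under the control limits and were not ranked.

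**Figure D1:**
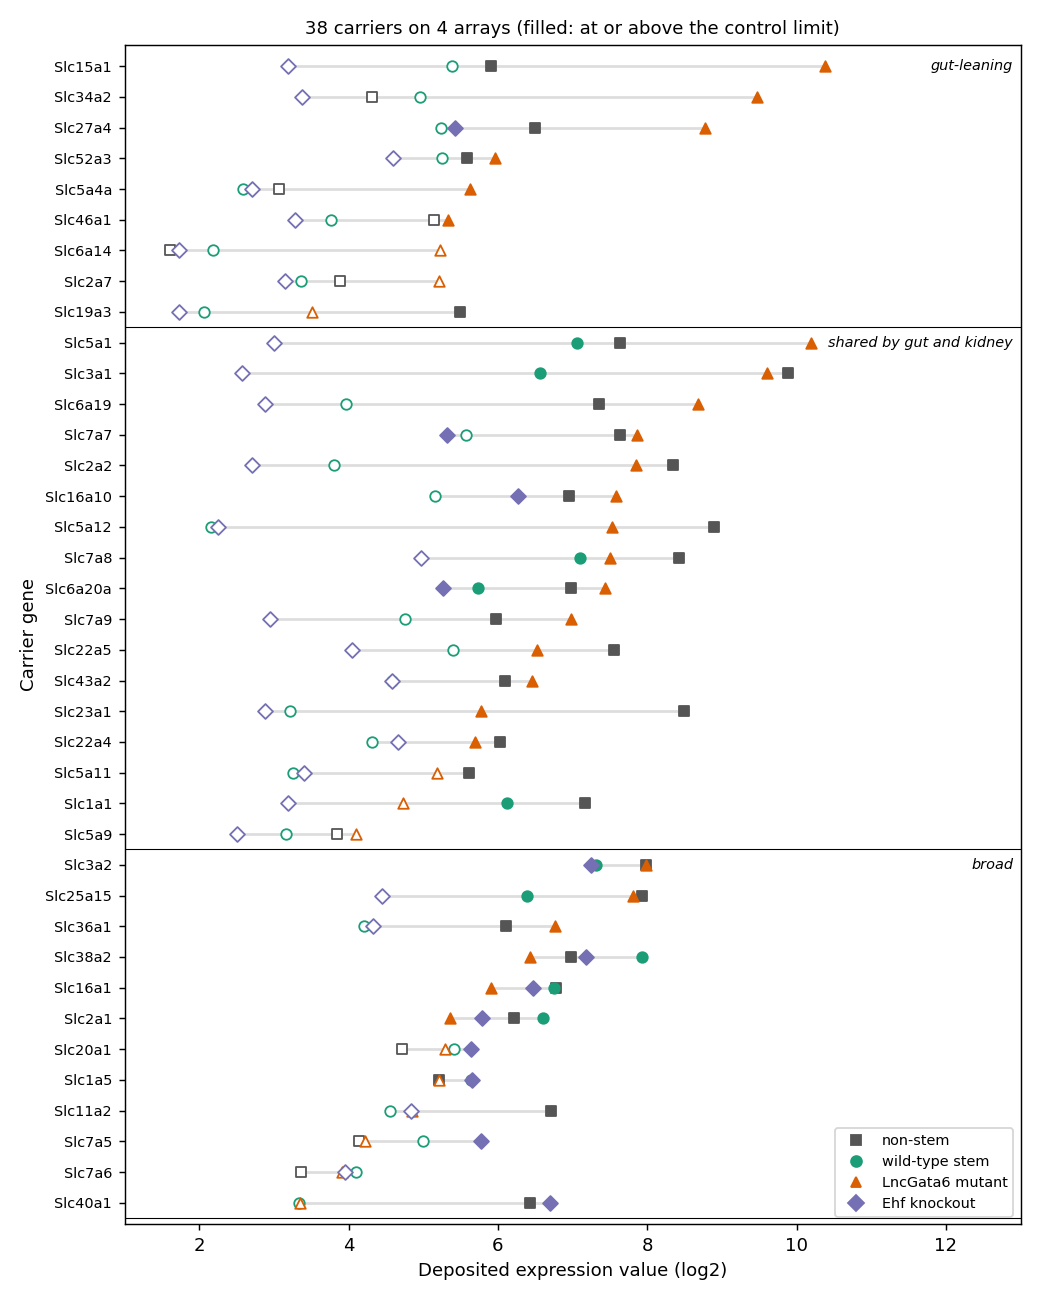
Deposited log2 values (x axis) of the 38 carriers (rows, by class) on the 4 arrays, with 1 array per group. Filled symbols lie at or above the array's control limit. Of the gut-leaning carriers, 6 of 9 have a filled highest value on the LncGata6 mutant array, against 1 of 12 broad carriers. No such share was computed over all named genes.

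A carrier was called higher or lower when 2 arrays differed by at least 1 on the log2 scale (2-fold) and the brighter value reached the 75th percentile of named features on its array. Every fold divides the brighter array by the dimmer one. A dimmer value under its control limit was raised to that limit, which makes the fold a lower bound, written "at least". No fold is given where both values lay under the limits. Log2 differences and their medians use the deposited values, dim ones included, and then carry no exact size.

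Between the wild-type stem and non-stem arrays, 21 of 38 carriers were lower on the stem array and 0 were higher, with a median difference of -1.25. Over all named genes 7.07% were lower and 3.83% higher, with a median of -0.11. Lower were 15 of 17 shared carriers (median -1.80), 4 of 12 broad carriers and 2 of 9 gut-leaning carriers (median -0.52). Of 17 kidney carriers 15 were lower (median -5.39), and of 14 other gut carriers 5 were lower and 2 higher. Kidney tubule markers were lower in 9 of 9 cases and liver markers in 8 of 9, while 12 of 14 general epithelial markers were higher. Of 12 enterocyte markers 5 were lower and 2 higher. Gut and kidney sources of the shared carriers on the non-stem array cannot be told apart.

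Between the LncGata6 mutant and wild-type stem arrays, 23 carriers were higher and 3 lower on the mutant array, with a median difference of 1.64. The background was 2.81% of named genes higher and 3.01% lower, with a median of -0.06. Higher were 7 of 9 gut-leaning carriers (median 3.03) and 14 of 17 shared carriers (median 2.23), but 2 of 12 broad carriers (median -0.16). On the wild-type stem array 0 of 9 gut-leaning and 5 of 17 shared carriers reached the control limit, so these medians have no exact size. On the mutant array 6 of 9 and 14 of 17 did. Slc2a7, Slc6a14 and Slc5a11 were called higher though under the limits on both arrays. Among the 14 other gut carriers 10 were higher (median 1.87), with Slc28a2, a sodium-coupled nucleoside carrier, at 9.07 against 3.70. Of 17 kidney carriers, 0 were higher and 0 lower, but only 1 of them, Slc4a4, reached the control limit on either array, so the other 16 have no measured level to compare. Of 12 enterocyte markers 11 were higher (median 3.37), as were 9 of 9 T cell markers (median 3.94). Kidney tubule markers were at a median of 2.62 on the mutant and 2.42 on the wild-type stem array, with Cubn, an enterocyte and kidney receptor, the only member higher.

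Between the Ehf knockout and wild-type stem arrays, 7 carriers were lower and 2 higher on the knockout array, with a median of -0.33 that became -0.16, -0.18 and -0.10 under median centring, quantile normalization and cyclic loess. Over all named genes 5.29% were lower and 2.59% higher, with a median of -0.20. The lower carriers were Slc5a1, Slc15a1, Slc1a1, Slc3a1, Slc7a8, Slc25a15 and Slc22a5, of which Slc15a1 and Slc22a5 lay under the control limits on both arrays. The higher carriers were Slc40a1 and Slc16a10. Without a limit on the brighter value 11 carriers were lower, since Slc2a2, Slc6a19, Slc7a9 and Slc34a2 then also passed the 2-fold limit. All 14 general epithelial markers were lower (median -4.65), and all 10 macrophage and 10 neutrophil markers higher. Of 12 enterocyte markers 8 were lower and 0 higher (median -3.49). Of 9 T cell markers 6 were higher and 2 lower, and all 6 red cell markers were higher. The broad class had a median of -0.02, which turned positive, at 0.16, 0.26 and 0.25, under those 3 scalings in the same order.

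Between the mutant arrays, 25 carriers were higher on the LncGata6 mutant and 2 on the Ehf knockout array, Slc40a1 and Slc7a5, with a median of 2.05 (LncGata6 mutant minus Ehf knockout). The background was 6.16% of named genes higher and 3.47% lower. Higher were 8 of 9 gut-leaning and 15 of 17 shared carriers, against 2 of 12 broad ones. Among these, Slc2a7, Slc6a14 and Slc5a11 lay under both control limits. Higher on the same array were 12 of 12 enterocyte markers (median 7.25), 14 of 14 general epithelial markers (median 4.34) and 8 of 9 T cell markers (median 2.74), and lower were all 10 neutrophil and all 10 macrophage markers. Their part in the carrier differences was not tested. Both mutant comparisons above share the wild-type stem array, and this comparison does not use it. Against that shared array, 5 carriers were called higher on the LncGata6 mutant and lower on the Ehf knockout array, a pair of calls found for 0.664% of named genes.

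Gut, kidney and shared carriers were compared between the LncGata6 mutant and non-stem arrays, which held 12 of 12 and 11 of 12 enterocyte markers at the control limit but differed in many markers. All 12 enterocyte markers (median 2.57), 12 of 14 general epithelial markers (median 2.10) and 9 of 9 T cell markers (median 3.41) were higher on the LncGata6 mutant array. All 9 kidney tubule markers (median -7.09) and all 9 liver markers (median -8.69) were lower there. The part of these cells in the carrier differences was not tested. On the LncGata6 mutant array 6 of 9 gut-leaning carriers were higher and 1 was lower (median 2.28), and 8 of 14 other gut carriers were higher and 0 lower (median 1.10). Of the higher gut-leaning carriers, Slc2a7 and Slc6a14 lay under the control limits on both arrays. Of 17 kidney carriers 15 were lower and 0 higher (median -5.30). Shared carriers lay between, with 3 higher, 4 lower and 10 not called. Their median of -0.27 became 0.095 under quantile normalization and 0.0090 under cyclic loess. The median of all named genes was -0.16, so a place between gut and kidney carriers is not particular to the shared class. Broad carriers had a median of -0.07, which became positive under all 3 scalings (0.062 to 0.23). Over all 38 carriers 9 were higher and 7 lower, against 3.66% and 6.87% of named genes. The kidney carriers with the largest deposited differences, all with LncGata6 mutant values under the control limit, were the organic anion carriers Slc17a1 (8.90 on the non-stem array, 1.52 on the LncGata6 mutant array) and Slc17a3 (8.94 and 1.81), the phosphate carrier Slc34a1 (10.39 and 3.30) and the cystine carrier Slc7a13 (8.10 and 1.06). Slc4a4, a bicarbonate carrier in the kidney list, was the member that also reached the control limit elsewhere, at 6.54 for wild-type stem and 6.87 for LncGata6 mutant cells.

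**Figure D2:**
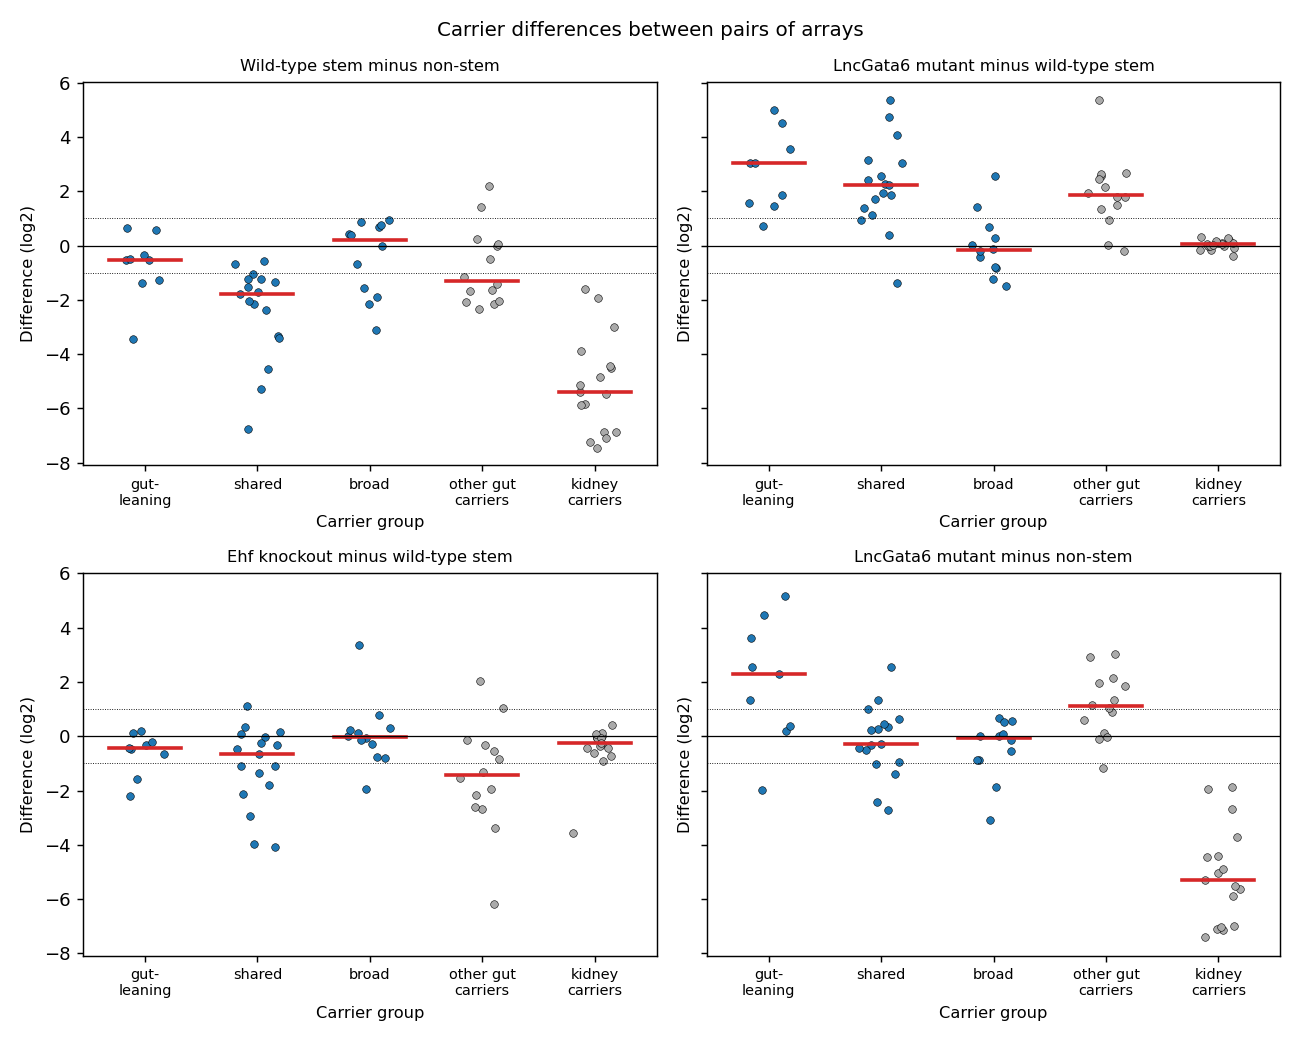
Differences of log2 values between pairs of arrays (y axis) for the 3 carrier classes (blue) and for other gut carriers and kidney carriers (grey); each point is a gene, red bars are medians and dotted lines mark the 2-fold limit. On the LncGata6 mutant minus non-stem panel the medians are 2.28 for gut-leaning and -5.30 for kidney carriers, with shared carriers at -0.27.

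Among the sodium-coupled sugar carriers, Slc5a1, the main brush border carrier of glucose and galactose, read 7.63 on the non-stem, 7.06 on the wild-type stem, 10.20 on the LncGata6 mutant and 2.99 on the Ehf knockout array. The mutant array was thus the highest and the knockout array the only one under its control limit. Slc5a1 was 8.77-fold higher on the LncGata6 mutant than on the wild-type stem array, 5.92-fold higher than on the non-stem array, and at least 3.66-fold lower on the Ehf knockout than on the wild-type stem array. Slc5a4a, a glucose-sensing relative, read 3.07, 2.59, 5.62 and 2.70 in the same order of arrays, and reached the control limit on the LncGata6 mutant array alone. Its close copy Slc5a4b read 2.74, 3.07, 5.58 and 2.45, and the 2 features may share signal. Slc5a9, a mannose and fructose carrier, stayed under the control limits on all arrays (2.51 to 4.09). Slc5a11, an inositol carrier, read 5.62 on the non-stem and 5.19 on the LncGata6 mutant array, but 3.25 on the wild-type stem and 3.40 on the Ehf knockout array.

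The facilitative sugar carriers went separate ways. Slc2a2, which passes glucose and fructose to the blood and is also abundant in liver and kidney, read 8.35 on the non-stem, 3.80 on the wild-type stem, 7.85 on the LncGata6 mutant and 2.70 on the Ehf knockout array. Slc2a2 was at least 4.69-fold higher on the LncGata6 mutant and at least 6.60-fold higher on the non-stem array than on the wild-type stem array, while the non-stem and LncGata6 mutant arrays differed by 1.41-fold. Slc2a1, the glucose carrier of dividing cells, ran the other way, at 6.21, 6.61, 5.36 and 5.79 in that order of arrays. It was called lower on the LncGata6 mutant than on the wild-type stem array, by 2.38-fold, and all 4 values lay above the control limits. Slc2a7, an intestinal hexose carrier, read 5.21 on the LncGata6 mutant array and 3.15 to 3.88 on the others, all under the limits.

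Slc5a12, a sodium-coupled lactate carrier, was measurable on 2 of the 4 arrays. It read 8.90 on the non-stem, 2.15 on the wild-type stem, 7.52 on the LncGata6 mutant and 2.25 on the Ehf knockout array. Slc5a12 was at least 3.73-fold higher on the LncGata6 mutant and at least 9.69-fold higher on the non-stem array than on the wild-type stem array. Slc16a1, the proton-coupled lactate and butyrate carrier found in most cells, differed little, at 6.78, 6.76, 5.91 and 6.47 in that order, and was called in 0 of the 5 comparisons.

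Slc15a1, the apical carrier of di- and tripeptides, read 5.91 on the non-stem, 5.38 on the wild-type stem, 10.38 on the LncGata6 mutant and 3.19 on the Ehf knockout array. Only the LncGata6 mutant array was far above its control limit. The fold there was at least 27.1 over the wild-type stem array, 22.1 over the non-stem array and at least 36.6 over the Ehf knockout array. Slc15a1 was also called lower on the Ehf knockout than on the wild-type stem array, at values under both control limits. Slc15a2, its kidney counterpart, read 5.19 on the non-stem and 3.23 on the LncGata6 mutant array.

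Among the apical amino acid carriers, Slc6a19, the main carrier of neutral amino acids, read 7.36 on the non-stem, 3.97 on the wild-type stem, 8.68 on the LncGata6 mutant and 2.88 on the Ehf knockout array. Slc6a19 was at least 8.33-fold higher on the LncGata6 mutant than on the wild-type stem array and 2.50-fold higher than on the non-stem array. Slc3a1, the heavy chain of the cystine and dibasic amino acid carrier, read 9.88, 6.56, 9.61 and 2.58 in the same order. It was 8.27-fold higher on the LncGata6 mutant and at least 2.59-fold lower on the Ehf knockout than on the wild-type stem array. Slc7a9, the transporting chain of that dimer, read 5.98, 4.75, 6.98 and 2.94. It was at least 2.56-fold higher on the LncGata6 mutant array, and both chains were under the control limit on the Ehf knockout array.

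Slc6a20a, a carrier of proline and other imino acids, lay above the control limit on all 4 arrays, at 6.98, 5.73, 7.43 and 5.26, and was 3.25-fold higher on the LncGata6 mutant than on the wild-type stem array. Its close copy Slc6a20b read 7.22 on the non-stem array and 3.24 to 4.21 on the others, so these 2 features had different patterns. Slc36a1, a proton-coupled carrier of small amino acids, read 6.10, 4.20, 6.76 and 4.33. Slc6a14, a broad amino acid carrier better known from colon and airway, read 5.22 on the LncGata6 mutant and 1.61 to 2.18 on the other arrays, but no value reached a control limit. Slc1a1, a carrier of glutamate and aspartate, ran against its class, at 7.16 on the non-stem, 6.12 on the wild-type stem, 4.72 on the LncGata6 mutant and 3.19 on the Ehf knockout array. It was called lower on both mutant arrays than on the wild-type stem array, at least 1.75-fold and at least 1.90-fold. Slc1a5, the glutamine exchanger, read 5.21 to 5.66 on all arrays and was never called.

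The basolateral and general amino acid carriers split by class. Slc7a7, the dibasic amino acid exit carrier, read 7.63 on the non-stem, 5.58 on the wild-type stem, 7.86 on the LncGata6 mutant and 5.32 on the Ehf knockout array, and was at least 4.70-fold higher on the LncGata6 mutant than on the wild-type stem array. Slc16a10, an exit carrier of aromatic amino acids, read 6.95, 5.15, 7.58 and 6.26, and was called higher on both mutant arrays than on the wild-type stem array, at least 3.87-fold and at least 1.56-fold. Slc43a2, a carrier of branched-chain amino acids, read 6.10, 4.59, 6.46 and 4.57. All 3 thus had their highest value on the LncGata6 mutant array. Slc7a8, a neutral amino acid exchanger, was instead highest on the non-stem array (8.43) and at least 3.75-fold lower on the Ehf knockout (4.97) than on the wild-type stem array (7.10). It differed by 0.40 between the LncGata6 mutant (7.49) and wild-type stem arrays and was not called.

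Carriers of growing cells showed smaller differences. Slc3a2, the shared heavy chain, read 7.99, 7.31, 7.98 and 7.25 and was never called. Slc7a5, the leucine carrier of dividing cells, read 4.13 on the non-stem, 4.9996 on the wild-type stem, 4.22 on the LncGata6 mutant and 5.77 on the Ehf knockout array, where alone it reached the control limit. It was at least 1.38-fold higher on the Ehf knockout than on the LncGata6 mutant array. Slc7a6 stayed under the limits on all arrays (3.36 to 4.10). Slc38a2, a glutamine and alanine carrier that cells induce when amino acids are scarce, was highest on the wild-type stem array, at 7.93 against 6.98 on the non-stem, 6.43 on the LncGata6 mutant and 7.18 on the Ehf knockout array. It was 2.83-fold lower on the LncGata6 mutant than on the wild-type stem array. Its difference of 0.95 from the non-stem array was not called but passed the 2-fold limit under each of the 3 scalings (1.04 to 1.18). In a list of 11 amino acid response genes 2 were lower and 0 higher on the LncGata6 mutant than on the wild-type stem array. Over all named genes 3.01% were lower and 2.81% higher. The 2 were Asns (5.06, under the control limit, against 6.34) and Aldh18a1 (5.94 against 7.01), which make asparagine and proline precursors. The other 9 were not called, among them Ddit3 (6.11 against 6.10). Of the 11, 4 reached the control limit on the wild-type stem and 3 on the LncGata6 mutant array.

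**Figure D3:**
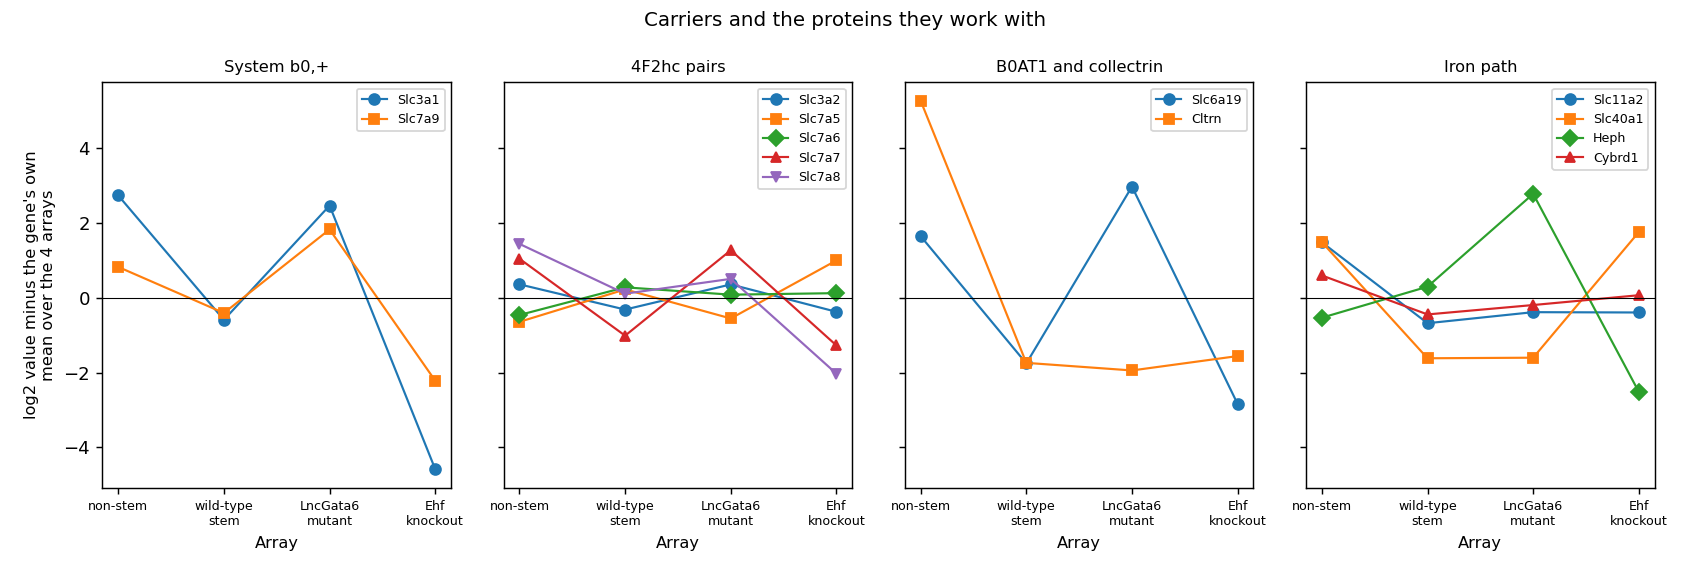
Log2 value of each gene minus its own mean over the 4 arrays (y axis) on each array (x axis), for carriers and the proteins they work with; lines only join the points of a gene. Slc3a1 and Slc7a9 both have low points on the Ehf knockout array, where their values lie under the control limit, while Cltrn is high on the non-stem array alone and Slc6a19 is highest on the LncGata6 mutant array.

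Carrier partners also differed between the arrays. Cltrn, the kidney partner that brings Slc6a19 to the cell surface, read 8.75 on the non-stem array and 1.56 to 1.94 on the other 3. Slc6a19 was higher on the LncGata6 mutant than on the non-stem array, where Cltrn had its only value above the control limit. Pdzk1, a brush border scaffold of gut and kidney, read 8.36 on the non-stem, 3.31 on the wild-type stem, 6.47 on the LncGata6 mutant and 3.40 on the Ehf knockout array. Bsg, the chaperone of Slc16a1, read 7.97 to 9.55 on the 4 arrays and was not called between the LncGata6 mutant and wild-type stem arrays. In all, 2 of 6 measured partner genes were higher and 0 lower in that comparison, Pdzk1 and Heph. Over all named genes 2.81% were higher and 3.01% lower there.

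The vitamin carriers lay under the control limits on both the wild-type stem and the Ehf knockout array. Slc23a1, the sodium-coupled vitamin C carrier, read 8.49 on the non-stem, 3.21 on the wild-type stem, 5.77 on the LncGata6 mutant and 2.88 on the Ehf knockout array. It was at least 7.28-fold lower on the wild-type stem than on the non-stem array and 6.57-fold lower on the LncGata6 mutant than on the non-stem array. Slc46a1, the proton-coupled folate carrier, read 5.14, 3.76, 5.34 and 3.29. Slc52a3, the riboflavin carrier, read 5.58, 5.25, 5.96 and 4.59, and was called only between the 2 mutant arrays, where it was at least 1.71-fold higher on the LncGata6 mutant array. Slc19a3, a thiamine carrier, read 5.49 on the non-stem array but 2.06, 3.50 and 1.72 on the others, in the order used above, and was the gut-leaning carrier that was lower on the LncGata6 mutant than on the non-stem array. Of 9 other vitamin and metal carriers, 0 were called in either direction between the LncGata6 mutant and wild-type stem arrays, with a median of 0.26. Over all named genes 2.81% were higher and 3.01% lower, so 0 of 9 is near the background. Only 4 of the 9 reached the control limit on the LncGata6 mutant and 3 on the wild-type stem array.

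The iron carriers did not follow the enterocyte pattern. Slc40a1, ferroportin, which exports iron from enterocytes, macrophages and liver cells, read 6.43 on the non-stem, 3.33 on the wild-type stem, 3.35 on the LncGata6 mutant and 6.70 on the Ehf knockout array. It was at least 2.11-fold higher on the Ehf knockout and at least 1.75-fold higher on the non-stem than on the wild-type stem array. Macrophage markers reached the control limit in 10 of 10 cases on the Ehf knockout array, 6 of 10 on the non-stem, and 1 of 10 on each of the other arrays, and their part in the Slc40a1 level was not tested. Red cell markers reached the limit in 4 of 6 and 2 of 6 cases on the Ehf knockout and non-stem arrays, and in 0 of 6 on the others. Heph, the ferroxidase that works beside ferroportin in enterocytes, read 4.50, 5.33, 7.81 and 2.53, so it was highest on an array where Slc40a1 lay under the control limit. Slc11a2, the apical iron carrier, read 6.71 on the non-stem array and 4.55 to 4.85 on the other 3, and the ferric reductase Cybrd1 stayed under the limits (2.80 to 3.84).

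Among the phosphate carriers, Slc34a2, the sodium-coupled carrier of the ileum and lung, read 4.31 on the non-stem, 4.96 on the wild-type stem, 9.47 on the LncGata6 mutant and 3.37 on the Ehf knockout array. It reached the control limit on the LncGata6 mutant array alone, at least 14.4-fold above the wild-type stem, at least 19.9-fold above the non-stem and at least 19.4-fold above the Ehf knockout array. Its kidney relative Slc34a1 instead reached the limit on the non-stem array alone (10.39, against 3.30 on the LncGata6 mutant array), and Slc34a3 stayed under the limits on all arrays. Slc20a1, a phosphate carrier of most cells, read 4.72 to 5.64 and was never called.

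The carnitine, fatty acid and ornithine carriers were each called higher on the LncGata6 mutant than on the wild-type stem array. Slc27a4, a fatty acid carrier and acyl-CoA synthetase of enterocytes, read 6.50 on the non-stem, 5.23 on the wild-type stem, 8.77 on the LncGata6 mutant and 5.42 on the Ehf knockout array, at least 8.86-fold higher on the LncGata6 mutant than on the wild-type stem array. The carnitine carrier Slc22a5 read 7.55, 5.40, 6.53 and 4.04, and its neighbour Slc22a4, an ergothioneine carrier, 6.03, 4.31, 5.70 and 4.66. Both were highest on the non-stem array. Slc25a15, the mitochondrial ornithine carrier of the urea cycle, read 7.94, 6.38, 7.81 and 4.45, 2.68-fold higher on the LncGata6 mutant and at least 2.29-fold lower on the Ehf knockout than on the wild-type stem array.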

How the data were processed

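Total RNA of 4 sorted samples was read on Clariom D mouse arrays, per the labels. The deposited log2 values come from the authors, with Affymetrix Power Tools and RMA named in the submitters' processing notes but no version given in the sources used here. Differences of dim features may be compressed in such values, which was not tested. The log2 scale was read from the values (-0.183 to 13.1), and the medians of named features ran from 3.24 to 3.54. Of 72688 features, 31258 carried 1 gene symbol after updating symbols through RefSeq (GRCm38.p6), which gave 30701 genes. With 1 array per group, differences of 2 arrays were counted without a test. Alternatives were 3 scalings (limma 3.58.1 in R 4.3.3 for quantile and cyclic loess), 2 limits on brightness and the median of features. All 38 carriers may be named, and from other lists up to 4 members with the largest differences; relatives, copies and partners of carriers lie outside that rule. The members and lists were chosen with earlier results of these data known. The kidney carrier and kidney tubule marker lists share Slc34a1 and Slc5a2.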

Additional observations from a re-analysis of the deposited data

Results flagged for a closer look

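Against the wild-type stem array, 5 carriers were called higher on the LncGata6 mutant and lower on the Ehf knockout array, as were 0.664% of named genes. The 2 differences share the wild-type stem array, and the mutant arrays are set against each other below. Because the 5 carriers were picked by both calls, a higher LncGata6 mutant value was fixed in advance and is not separate support. The difference between the 2 effects was not tested. The LncGata6 mutant array exceeded the Ehf knockout array by 7.20 for Slc5a1, 7.19 for Slc15a1, 7.03 for Slc3a1, 3.36 for Slc25a15 and 2.48 for Slc22a5 (log2, deposited values). All 5 Ehf knockout values lay under the control limit, so these sizes are not exact, and the folds are at least 32.1, 36.6, 21.4, 6.14 and 2.52 in the same order. General epithelial markers differed between these arrays by a median of 4.34, in 14 of 14 cases, and their part in the carrier differences was not tested. For Slc15a1 and Slc22a5, the Ehf knockout and wild-type stem values both lay under the control limits.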

How the results depend on the processing

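No paired analysis was possible because each group has 1 array. Of 99 carrier calls in the 5 comparisons, 84 were kept under all 6 alternatives, and 0 of the calls changed direction. The median of features could change no carrier, since each has 1 feature. The limits on brightness leave the differences as they are, and removing the limit can only add calls. A change of direction was thus possible only under the 3 scalings. Changes of sign among differences that were not called were not counted. The number of carriers higher on the wild-type stem than on the non-stem array went from 0 to 1 under median centring, 2 under quantile normalization and 1 under cyclic loess. In the same order of scalings, the median carrier difference of the Ehf knockout from the wild-type stem array became -0.16, -0.18 and -0.10, and that of the LncGata6 mutant from the non-stem array 0.27, 0.36 and 0.29, from 0.14. With no brightness limit 11 carriers were lower on the Ehf knockout than on the wild-type stem array. Class medians were recomputed as a check chosen after seeing the data, and those that changed sign were that of the broad class, for the Ehf knockout minus the wild-type stem array (0.16, 0.26 and 0.25) and the LncGata6 mutant minus the non-stem array (0.062, 0.23 and 0.14), and of the shared class for the latter under quantile normalization (0.095) and cyclic loess (0.0090). All 3 scalings ended the calls of Slc1a1 (wild-type stem minus non-stem, -0.94 to -0.77), Slc22a4 (LncGata6 mutant minus Ehf knockout, 0.75 to 0.87) and Slc22a5 (LncGata6 mutant minus non-stem, -0.90 to -0.79). A brightness limit at the control percentile ended 10 calls, among them those of Slc2a7, Slc6a14 and Slc5a11. The scalings moved the median of all genes between the Ehf knockout and wild-type stem arrays from -0.20 to between -0.02 and -0.01. Quantile normalization turned the split of all genes, higher and lower, from 1175 and 2172 to 1639 and 1747 (wild-type stem minus non-stem), from 796 and 1623 to 1090 and 1107 (Ehf knockout minus wild-type stem), from 1891 and 1066 to 1495 and 1405 (LncGata6 mutant minus Ehf knockout) and from 1124 and 2110 to 1505 and 1603 (LncGata6 mutant minus non-stem). Cyclic loess turned 862 and 925 to 1051 and 678 (LncGata6 mutant minus wild-type stem). The causes were not tested. Carriers with values under the control limits, such as Slc5a9 and Slc7a6 on all arrays, cannot be ordered.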
